A study of Nasonia vitripennis with 6 samples.

Results

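The proteasome genes described here were the 41 genes of the authors' expression table, which lists 36329 genes, whose annotation contains the word proteasome. The table compares the venom gland (VG) with the ovary of the parasitoid wasp *Nasonia vitripennis*, with 3 RNA-seq libraries from each tissue. All wasps in both tissue groups were mated and host exposed females of the Lab II strain, aged 1 to 3 days, so the groups differed in the dissected tissue and not in strain, treatment or age. The dissected tissue of 40 to 50 females was pooled for each replicate, so differences between individual wasps were not measured. By their annotations, 14 of the 41 genes encode subunits of the proteasome core, of which 7 are alpha and 7 are beta subunits, and 15 encode non-ATPase subunits of the regulatory particle. A further 3 encode assembly chaperones of the regulatory particle, 3 encode assembly and maturation factors of the core, and 6 encode activators, an inhibitor or an associated protein. The ATPases of the regulatory particle are annotated as 26S protease subunits, which the word proteasome does not match, and they are described separately.

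The proteasome is the main protease of the cytosol and nucleus of eukaryotic cells. Its core is a barrel of stacked rings, in which alpha subunits form the outer rings and gate the entrance, and beta subunits form the inner rings and carry the proteolytic sites. The regulatory particle caps the barrel. Its lid and base bind proteins tagged with ubiquitin, remove the tag, unfold the protein with ATPases and feed it into the core. In secretory cells such as those of a gland the proteasome also degrades misfolded proteins that are returned from the endoplasmic reticulum, and in germ cells and early embryos it degrades cyclins and stored maternal proteins.

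Each value below is a mean normalised count, which is the read count of a gene divided by the authors' size factor for the library and averaged over the 3 libraries of a tissue, without division by gene length. Only these tissue means were analysed, so no spread between replicates is given, fold changes are descriptions of size, and no test is given. A log2 fold change is the VG mean divided by the ovary mean, on the log2 scale. For the 35 proteasome genes that reached a mean of 200 in each tissue, counting error alone gave a 95% interval of at most plus or minus 0.045 to 0.22 on the log2 scale, depending on the gene. The values are for whole tissues, in which fewer cells of a type and less RNA per cell cannot be told apart. Levels of different genes were not compared with each other, since they also depend on gene length.

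The tissue labels were checked against marker genes. Of 76 venom protein encoding genes that reached a mean of 10 in either tissue, 72 were at least 2-fold higher in the VG, with a median log2 fold change of 13.72 over the 75 with reads in both tissues. Of 11 ovary markers, which include oskar, nanos and vasa, 10 were at least 2-fold lower in the VG. The exception was the bicaudal D-related protein gene, with means of 3929 in the VG and 239 in the ovary. Genes annotated as hexamerin, vitellogenin or apolipophorin, which mark the fat body, summed to 116499 in the VG and 9202 in the ovary, and 8 of 13 were at least 2-fold higher in the VG and 4 at least 2-fold lower. The vitellogenin gene Nasvi2EG010626 held most of that sum, with 100996 in the VG and 3710 in the ovary. Muscle markers summed to 10979 in the VG and 9945 in the ovary, with 2 of 14 at least 2-fold higher in the VG and 1 at least 2-fold lower. Of the 11382 genes past the same minimum, 33.1% were at least 2-fold higher in the VG and 33.9% at least 2-fold lower. The part of other cell types in the differences below was not tested.

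Under the authors' size factors most proteasome genes lay within 2-fold between the VG and the ovary. Lower means in the VG were found for 11 of 13 regulatory particle subunits and for all 5 genes of the activator group past the minimum. The assembly chaperones and maturation factors went in both directions. Of the 41 genes, 38 reached a mean of 10 in either tissue. Of the other 3, the activator subunit gene Nasvi2EG002765 and the gene Nasvi2EG027926b for DSS1, a small lid subunit, were listed at 0 in both tissues, and the regulatory subunit 2 gene Nasvi2EG001976 had 1 read in a VG library and none in the ovary. At least a 2-fold difference between the tissue means was found for 8 of the 38 genes, or 21.1%, against 67.0% of the 11382 genes of the table that passed the same minimum. By direction, 1 proteasome gene was at least 2-fold higher in the VG, against 33.1% of all genes, and 7 were at least 2-fold lower in the VG, against 33.9% of all genes. Of these 7, the subunit 14 genes Nasvi2EG010540 and Nasvi2EG010539 and the activator gene Nasvi2EG002766 passed the minimum only through the ovary. The direction of their difference was thus fixed by the minimum. When each tissue had to reach a mean of 10, 4 were left, against 33.0% of the 8532 such genes in the table. The remaining 30 proteasome genes lay within 2-fold. Among the 3433 genes that reached a mean of 1000 in either tissue, 68.1% were at least 2-fold apart. The median log2 fold change was -0.41 over the proteasome genes and -0.08 over the 11048 of the 11382 genes with reads in both tissues, whose middle 50% ran between -1.43 and 1.75. When each tissue had to reach a mean of 10, the medians were close, at -0.26 over the proteasome genes and -0.27 over the 8532 genes.

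**Figure D1:**
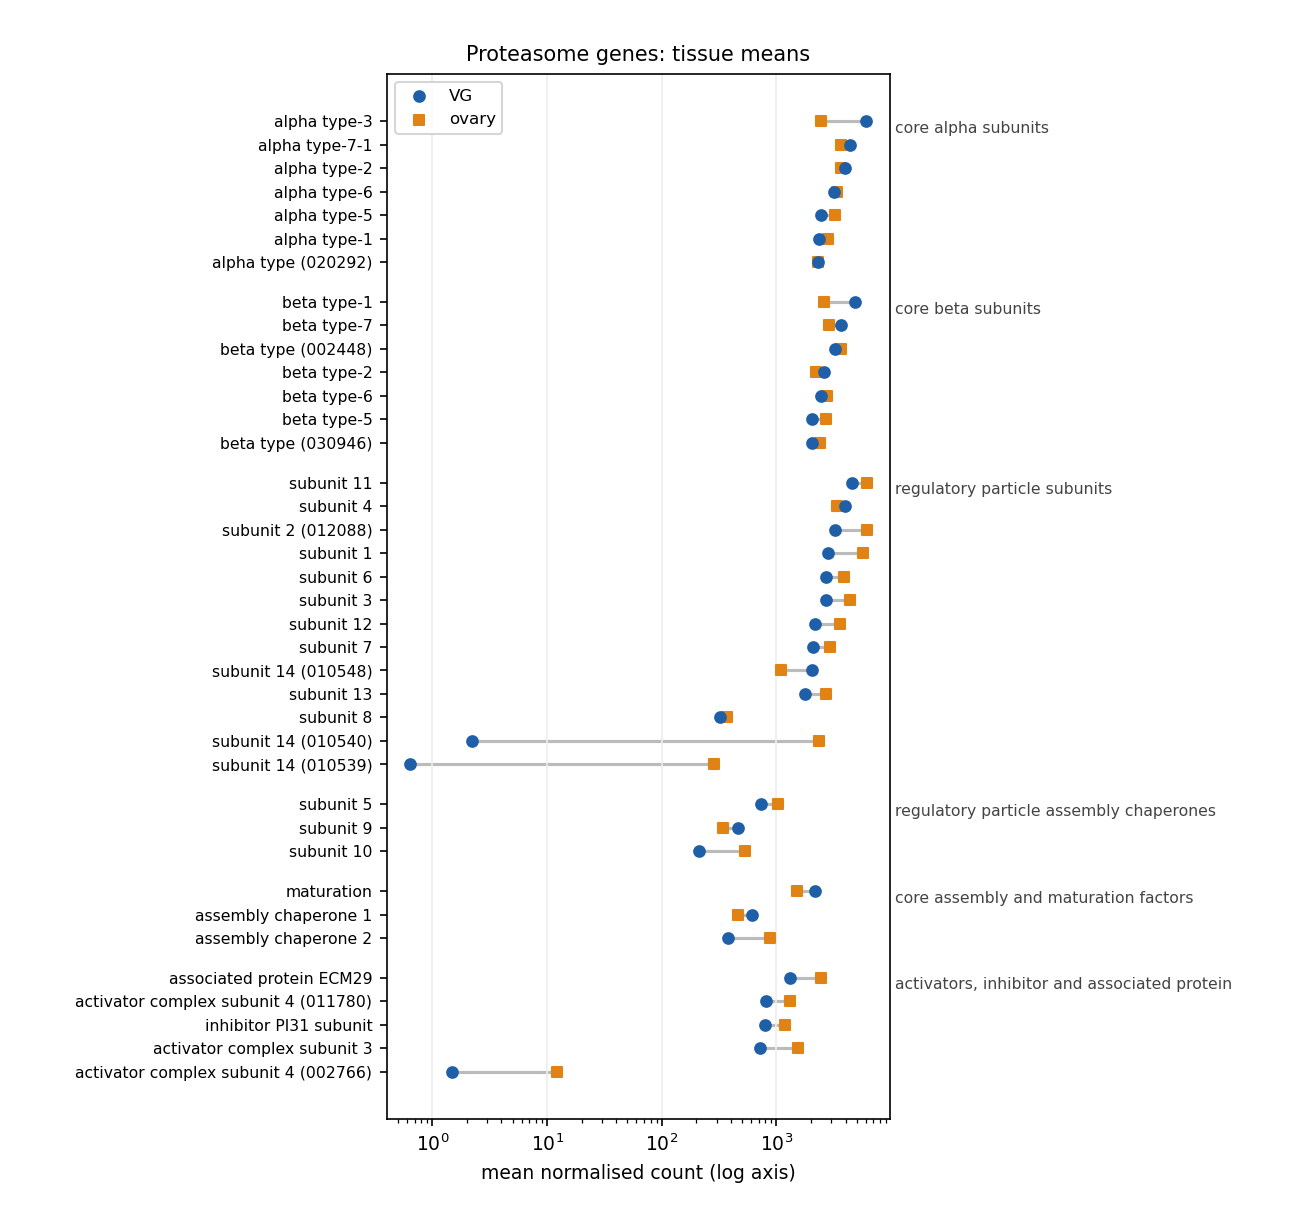
Mean normalised counts of the 38 proteasome genes that reached a mean of 10 in either tissue, on a log axis, with VG means as circles and ovary means as squares joined by a line for each gene. Genes are grouped by the part of the complex, and digits in brackets are the ends of gene identifiers where an annotation does not name a gene uniquely. Most lines are short, and the long lines belong to the subunit 14 genes Nasvi2EG010540 and Nasvi2EG010539 and to the activator gene Nasvi2EG002766.

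The position of the proteasome between the tissues depended on the scaling. The normalised counts summed to 55159269 in the VG and 10662081 in the ovary, and the proteasome genes made up 0.149% of the VG total and 0.890% of the ovary total. Without the venom protein encoding genes they made up 0.317% of the VG total and 0.892% of the ovary total. Scaling both tissues to equal totals shifted every log2 fold change by -2.37, so that alpha type-3 was at -1.05 and all 38 genes were at least 2-fold lower in the VG, against 71.3% of all genes. Scaling to equal totals without the venom protein encoding genes gave a shift of -1.28, which placed alpha type-3 at 0.04 and the other 37 genes below 0, with 31 at least 2-fold lower in the VG, against 56.7% of all genes. Centring on the median of the 8532 genes that reached a mean of 10 in each tissue added 0.27, which placed 12 of the 14 core subunits above 0 and 10 of the 13 regulatory subunits below 0. A statement on the direction of a proteasome gene, or on how many lay within 2-fold, is therefore made under the authors' size factors, whereas the distance between core and regulatory subunits is the same under each of these scalings.

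Under the authors' size factors the core subunits were close to equal in the VG and the ovary. Their 14 log2 fold changes had a median of -0.04, an interquartile range of 0.47 and a range of -0.42 to 1.32, with 6 above 0 and 8 below. Summed over the 14 genes, the VG mean was 45467 and the ovary mean 40688. All 14 passed the minimum, and 13 of them lay within 2-fold.

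The exception was alpha type-3 (Nasvi2EG029070), a subunit of the outer ring. It had a mean of 6065 in the VG and 2433 in the ovary, which is 2.49-fold higher in the VG. No other proteasome gene was at least 2-fold higher in the VG. The other alpha subunits were narrowly spread. Alpha type-7-1 (Nasvi2EG019935) had means of 4350 in the VG and 3672 in the ovary. Alpha type-2 (Nasvi2EG002206) had 3994 in the VG and 3657 in the ovary. An alpha subunit without a type number (Nasvi2EG020292) had 2291 in the VG and 2299 in the ovary, which was the closest match among all proteasome genes. Alpha type-6 (Nasvi2EG004592) had 3202 in the VG and 3363 in the ovary, and alpha type-1 (Nasvi2EG005369) had 2367 in the VG and 2818 in the ovary. Alpha type-5 (Nasvi2EG005999) had the lowest fold change among the alpha subunits, with 2422 in the VG and 3214 in the ovary. Leaving out alpha type-3, the SD of the core log2 fold changes was 0.36, against 0.49 with it.

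Among the beta subunits, those with proteolytic sites did not move together. Beta type-7 (Nasvi2EG003281), which carries the trypsin-like site, had means of 3647 in the VG and 2888 in the ovary, a log2 fold change of 0.34. Beta type-6 (Nasvi2EG013816), which carries the caspase-like site, had 2429 in the VG and 2738 in the ovary, a log2 fold change of -0.17. Beta type-5 (Nasvi2EG010473), which carries the chymotrypsin-like site, had 2037 in the VG and 2719 in the ovary, and its log2 fold change of -0.42 was the lowest in the core. All of them thus lay within 1.5-fold. The other beta subunits covered a wider range. Beta type-1 (Nasvi2EG007202) had 4795 in the VG and 2583 in the ovary, 1.86-fold higher in the VG and the highest fold change among the beta subunits. Beta type-2 (Nasvi2EG021046) had 2606 in the VG and 2228 in the ovary. No type number is annotated for Nasvi2EG002448, with 3241 in the VG and 3665 in the ovary, or for Nasvi2EG030946, with 2023 in the VG and 2414 in the ovary. Over the beta subunits the median log2 fold change was -0.17, and over the alpha subunits it was -0.0048.

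The fold changes of the regulatory particle subunits lay below those of the core. Over the 13 of 15 genes past the minimum, the median log2 fold change was -0.62, with 2 above 0 and 11 below. Of the 13, 3 (23.1%) were at least 2-fold lower in the VG, against 33.9% of all genes. Without the subunit 14 genes that passed only through the ovary, the median was -0.51 and 1 gene was at least 2-fold lower. The core median lay 0.58 above the regulatory median on the log2 scale, a difference that no common rescaling of the tissues can change. Part of it comes from the subunit 14 genes that passed only through the ovary. Without them the core median was -0.04 and the regulatory median -0.51. The difference was 0.53 without all 3 subunit 14 genes, which include 1 with a higher mean in the VG. With the ATPases counted as regulatory subunits it was 0.43. Subunits of a complex are not replicates of a tissue, so this difference was not tested.

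The largest differences among the regulatory subunits with a single expressed gene were those of the scaffold subunits of the base, to which the ATPases and ubiquitin receptors bind. Subunit 1 (Nasvi2EG002122, the counterpart of yeast Rpn2) had means of 2812 in the VG and 5675 in the ovary, which is 2.02-fold lower in the VG and just past the 2-fold limit. Subunit 2 (Nasvi2EG012088, the counterpart of yeast Rpn1) had 3266 in the VG and 6175 in the ovary, 1.89-fold lower in the VG and just short of the limit. Counting error alone would allow either side of the limit for subunit 1. The ubiquitin receptor subunit 4 (Nasvi2EG013739, Rpn10 in yeast) went the other way, with 3963 in the VG and 3347 in the ovary.

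Lid subunits other than subunit 14 and DSS1 had similar fold changes. Their log2 fold changes all lay below 0 under the authors' size factors and ran between -0.73 and -0.21, with a median of -0.51 and an SD of 0.18 over 7 genes, and none reached 2-fold. Subunit 12 (Nasvi2EG000794) had the lowest fold change, with 2165 in the VG and 3585 in the ovary. Subunit 3 (Nasvi2EG002579) had 2684 in the VG and 4386 in the ovary, and subunit 13 (Nasvi2EG000133) had 1765 in the VG and 2718 in the ovary. Values of these genes thus differed by 1.54-fold to 1.66-fold between the tissues. Subunit 6 (Nasvi2EG008806) had 2704 in the VG and 3858 in the ovary, and subunit 7 (Nasvi2EG001600) had 2098 in the VG and 2952 in the ovary. Subunit 11 (Nasvi2EG004966), which braces the lid against the core, had 4536 in the VG and 6183 in the ovary. Subunit 8 (Nasvi2EG014039) had 318 in the VG and 369 in the ovary, which gave the fold change closest to 0 in the lid. After centring on the median gene, 6 of the 7 lid subunits stayed below 0 and subunit 8 was at 0.06.

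**Figure D2:**
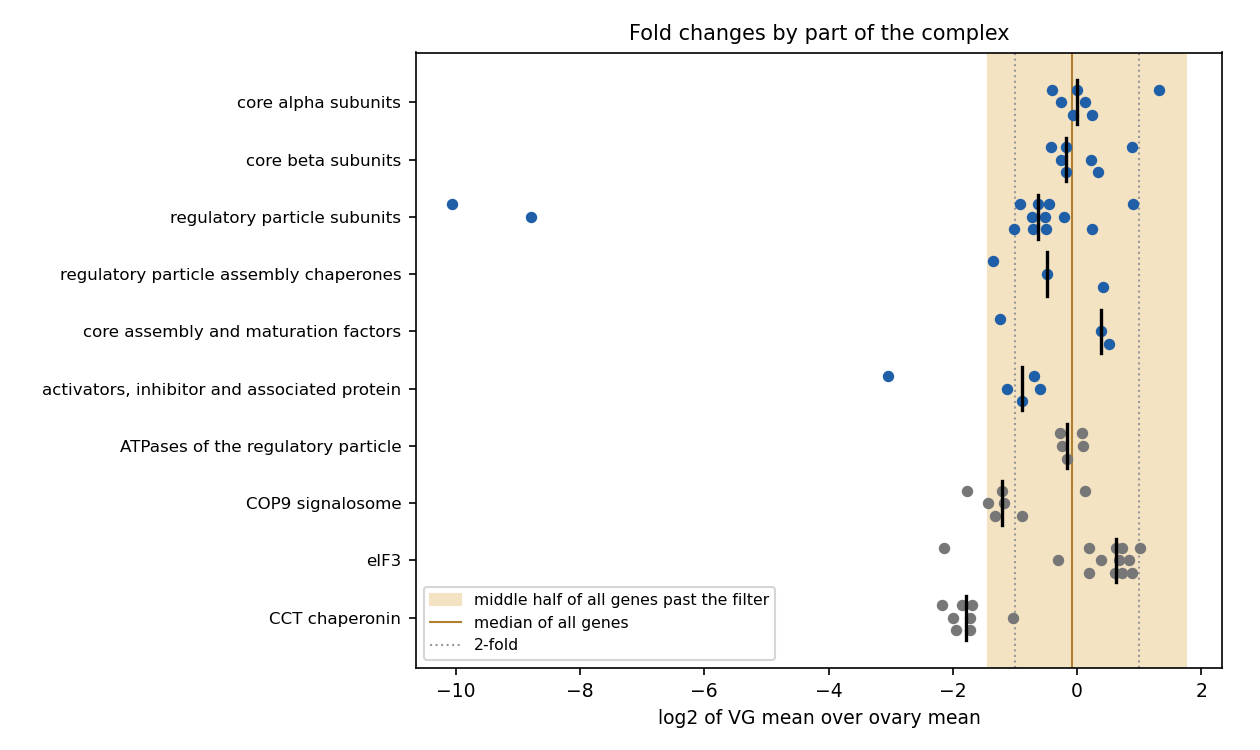
Log2 ratio of VG to ovary mean for each gene past the minimum, by part of the proteasome (blue points) and in 4 comparison groups (grey points), with a black bar at each group's median, shading for the middle 50% of the 11048 genes with reads in both tissues, a line at their median of -0.08 and dotted lines at 2-fold. Under the authors' size factors core subunits centre near 0, with alpha type-3 at 1.32. The base scaffold subunits and the lid subunits other than subunit 14 lie below 0. The subunit 14 genes are at -10.05, -8.80 and 0.90, and the activator gene Nasvi2EG002766 is at -3.05.

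Regulatory subunit 14 is the deubiquitinase of the lid, known as Rpn11 in yeast, which cuts the ubiquitin chain from a protein as it enters the core. The table annotates 3 genes with this name, and they were distributed in opposite ways between the tissues. Nasvi2EG010548 had means of 2056 in the VG and 1101 in the ovary, 1.87-fold higher in the VG. Nasvi2EG010540 had 2.22 in the VG and 2361 in the ovary. Nasvi2EG010539 had 0.635 in the VG and 283 in the ovary. Thus the VG had reads almost only for Nasvi2EG010548, while the ovary had reads for each of the 3 genes, most of them for Nasvi2EG010540.

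The VG means of Nasvi2EG010540 and Nasvi2EG010539 rest on very few reads. The value that 1 read adds to a tissue mean differs between libraries, and low means could be resolved into whole reads per library in this way. Nasvi2EG010540 had 3 VG reads, all in 1 library, and the ovary mean was 1063 times the VG mean, with a 95% counting interval of 232 to 6005. Nasvi2EG010539 had 1 VG read, and the ovary mean was 445 times the VG mean, with a counting interval of 43.7 to 17567. These intervals cover counting error only. Log2 fold changes of -8 or lower were found for 153 of the 11048 genes past the minimum that had reads in both tissues. With genes that had no VG reads counted as below -8, there were 406 of the 11382 genes past the minimum, or 3.57%.

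Summed over the 3 genes, subunit 14 had 2058 in the VG and 3744 in the ovary, a log2 fold change of -0.86. This sum lay within the range of -1.01 to -0.21 that the regulatory subunits 1, 2, 3, 6, 7, 8, 11, 12 and 13 covered. Subunit 4, which is not in that list, lay above this range at 0.24. Nasvi2EG010548 held 99.9% of the sum in the VG, whereas 70.6% of the sum in the ovary came from the other genes and 63.1% from Nasvi2EG010540 alone. The identifiers Nasvi2EG010539 and Nasvi2EG010540 are consecutive, and their positions were not analysed here. The counting tool that the authors used leaves out reads that match more than 1 place, so the counts of genes with near-identical copies are uncertain, and the shares are not corrected for gene length.

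**Figure D3:**
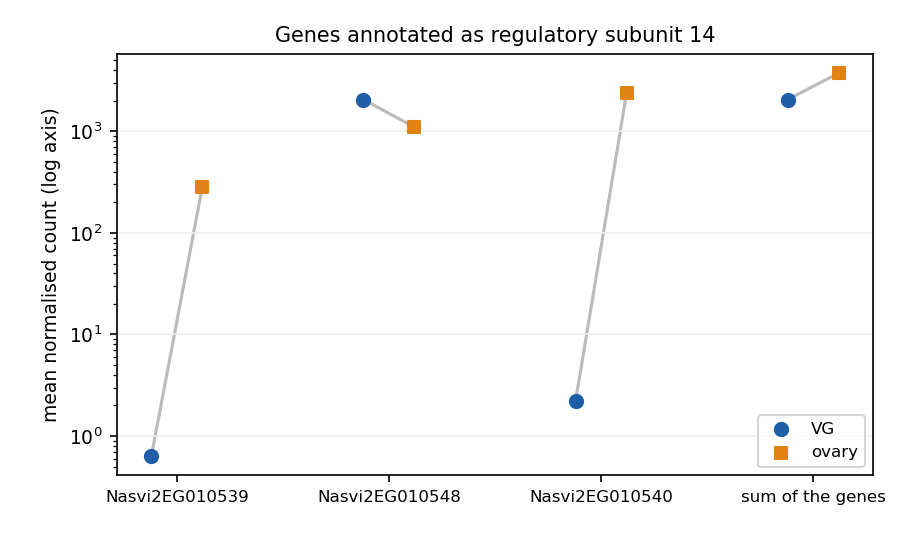
Mean normalised counts of the genes annotated as regulatory subunit 14 and of their sum, on a log axis, with VG means as circles and ovary means as squares. Nasvi2EG010539 and Nasvi2EG010540 have means of 0.635 and 2.22 in the VG against 283 and 2361 in the ovary, Nasvi2EG010548 is higher in the VG, and the sums are 2058 in the VG and 3744 in the ovary.

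ATPases of the base unfold the captured protein and drive it into the core. The table lists 6 of them, of which the subunit 6B gene (Nasvi2EG012436) was listed at 0 in both tissues, and the other 5 lay within 2-fold. Their log2 fold changes had a median of -0.16, and each was closer to 0 than the scaffold subunits of the same base. The lowest was that of subunit 10B (Nasvi2EG007411), with 2737 in the VG and 3311 in the ovary. Subunit 6A (Nasvi2EG012727) had the highest, with 3604 in the VG and 3361 in the ovary. Ubiquitin receptor ADRM1 (Nasvi2EG027144, Rpn13 in yeast), whose annotation also falls outside the rule, had 1129 in the VG and 693 in the ovary, a log2 fold change of 0.70. The ubiquitin receptors ADRM1 and subunit 4 thus both had higher means in the VG. Deubiquitinases that bind the regulatory particle had lower ones. Carboxyl-terminal hydrolase 14 (Nasvi2EG009609) had 1202 in the VG and 2835 in the ovary, and isozyme L5 (Nasvi2EG010569) had 1032 in the VG and 1744 in the ovary.

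Assembly chaperones bind proteasome precursors and are absent from the finished particle. Among those of the regulatory base, subunit 10 (Nasvi2EG008889, known as gankyrin in mammals) had 209 in the VG and 532 in the ovary, 2.54-fold lower in the VG. Subunit 5 (Nasvi2EG005336) had 732 in the VG and 1023 in the ovary, and subunit 9 (Nasvi2EG011014) had 461 in the VG and 343 in the ovary. For the core, assembly chaperone 1 (Nasvi2EG003586) had 608 in the VG and 465 in the ovary, while assembly chaperone 2 (Nasvi2EG002251) had 376 in the VG and 883 in the ovary, 2.35-fold lower in the VG. These chaperones act as a heterodimer in mammals and yeast, where they help to build the alpha ring, and here their fold changes had opposite signs. The maturation protein (Nasvi2EG010700), which assists the assembly of the beta ring and is degraded by the finished core, had 2145 in the VG and 1502 in the ovary, a log2 fold change of 0.51.

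Activators other than the regulatory particle can also cap the core, and every gene of this group with enough reads had a lower mean in the VG. Activator subunit 3 (Nasvi2EG010788, PA28 gamma in mammals), a nuclear activator that works without ATP, had 715 in the VG and 1553 in the ovary, 2.17-fold lower in the VG. Activator subunit 4 (Nasvi2EG011780, PA200 in mammals), a large single-chain cap of the core, had 814 in the VG and 1321 in the ovary. PI31 (Nasvi2EG013978), named for its inhibition of the isolated core, had 793 in the VG and 1192 in the ovary. ECM29 (Nasvi2EG021000), which binds both the core and the regulatory particle, had 1312 in the VG and 2423 in the ovary, 1.85-fold lower in the VG. Over the 5 genes past the minimum the median log2 fold change was -0.88. These include Nasvi2EG002766, described below, which passed the minimum only through the ovary. The other genes ran from -1.12 to -0.59. All 5 stayed below 0 after centring on the median gene, the only scaling tried that raised the log2 fold changes.

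A further gene annotated as activator subunit 4 (Nasvi2EG002766) had a mean of 1.48 in the VG and 12.2 in the ovary. Its reads could be resolved for every library. The VG libraries held 0, 2 and 0 reads and the ovary libraries 30, 34 and 26 reads, which correspond to normalised counts of 0, 4.44 and 0 in the VG and 11.6, 13.8 and 11.3 in the ovary. That these values do not overlap between the tissues is not read as a result, since the gene passed the minimum only through the ovary. The share of all genes without overlap was not computed. No test is given, for the same reason and because an exact permutation test of 3 libraries against 3 cannot give a p below 0.1. The ovary mean was 8.26 times the VG mean, with a 95% counting interval of 1.46 to 79.4. The identifier next to it, Nasvi2EG002765, is the activator subunit gene listed at 0 in both tissues.

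Other parts of the ubiquitin system were compared in the same way. Ubiquitin itself is encoded as tandem repeats and as fusions to ribosomal proteins. Polyubiquitin-C (Nasvi2EG013235) had 7268 in the VG and 16471 in the ovary, and polyubiquitin-B (Nasvi2EG023157) had 7694 in the VG and 8789 in the ovary. Under the authors' size factors both fusions went the other way, with 42459 in the VG and 13388 in the ovary for ubiquitin-S27a (Nasvi2EG011275) and 45117 in the VG and 8175 in the ovary for ubiquitin-L40 (Nasvi2EG031153). The fusions are also ribosomal protein genes. Of 76 genes annotated with a cytosolic ribosomal subunit, 73 were at least 2-fold higher in the VG, against 33.1% of all genes. None was at least 2-fold lower. Their median log2 fold change was 1.82, which was -0.55 under equal totals. The highest was ribosomal protein S20 (Nasvi2EG012738), with 20727 in the VG and 1970 in the ovary, and the lowest was NMD3 (Nasvi2EG019456), an export factor of the ribosome and not a ribosomal protein, with 767 in the VG and 1081 in the ovary.

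Segregase p97 extracts ubiquitin-tagged proteins from membranes and complexes and hands them to the proteasome. Its gene TER94 (Nasvi2EG008526) had 14491 in the VG and 16912 in the ovary, within 2-fold. Of 8 genes of p97 and its cofactors past the minimum, none was at least 2-fold higher in the VG and 4 were at least 2-fold lower, against 33.9% of all genes. Of these 4, Nasvi2EG004461, annotated as a transitional endoplasmic reticulum ATPase, passed the minimum only through the ovary, being listed at 0 in the VG and with a mean of 24.1 in the ovary. UBX domain-containing protein 7 (Nasvi2EG010323) was the lowest with reads in both tissues, at 258 in the VG and 1183 in the ovary. UBX domain-containing protein 6 (Nasvi2EG019971) was the highest, at 1543 in the VG and 873 in the ovary. Of 5 genes for shuttles that carry tagged proteins to the proteasome, 1 was at least 2-fold lower in the VG, against 33.9% of all genes. This was RAD23 protein B (Nasvi2EG001097), with 1050 in the VG and 3500 in the ovary, and the highest was ubiquilin-1 (Nasvi2EG030442), with 5438 in the VG and 2895 in the ovary.

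In its architecture the lid resembles the COP9 signalosome, which removes the modifier NEDD8 from cullin ubiquitin ligases, and the translation initiation factor eIF3. The medians of these complexes differed from that of the lid, although eIF3 subunit D (Nasvi2EG000312), at -0.31, lay within the range of the lid. Of 7 signalosome genes past the minimum, 5 were at least 2-fold lower in the VG, against 33.9% of all genes. The median log2 fold change of the 7 was -1.20, against -0.51 for the lid. Subunit 3 (Nasvi2EG000228) was the lowest, with 588 in the VG and 2005 in the ovary, and subunit 8 (Nasvi2EG008485) was the highest, with 661 in the VG and 607 in the ovary. Of 13 eIF3 genes past the minimum, 11 were within 2-fold, whereas 67.0% of all genes were at least 2-fold apart. The median of the 13 was 0.62, which was -1.75 under equal totals. The highest was subunit I (Nasvi2EG014962), with 9750 in the VG and 4817 in the ovary, and the lowest was the gene model Nasvi2EG000315 annotated as subunit G, with 22.4 in the VG and 98.5 in the ovary. Another multi-subunit machine is the CCT chaperonin, which folds actin and tubulin. All 8 of its genes were at least 2-fold lower in the VG, against 33.9% of all genes. The chaperonin had a median of -1.79 on the log2 scale. Its values ran from 1455 in the VG and 6575 in the ovary for subunit theta (Nasvi2EG001149) to 3753 in the VG and 7687 in the ovary for subunit gamma (Nasvi2EG037340). In the order of medians, the lid lay between the signalosome and the ATPases.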

How the data were processed

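VG and ovary libraries (3 each, poly-A enriched and stranded) were sequenced as paired reads. For VG replicate 3 the paper reports a lower share of mapped reads, which it ascribes to more rRNA reads. Every VG mean includes this library. After trimming, the authors mapped reads with TopHat, counted those on exons of official gene set version 2 by strand in HTSeq-count's union mode, and divided the counts by DESeq size factors. No sources used here give the genome build by name. The deposited signal is the mean of these normalised counts over a tissue's 3 libraries, for 36329 genes, of which 16475 (45.3%) were listed at 0 in both tissues. The deposited fold changes, p-values and adjusted p-values are the authors' own comparison and were not used.

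Log2 fold changes were computed from the means without a pseudocount, with a minimum mean of 10 in either tissue and a limit of 2-fold. Means up to 100 in the VG and 20 in the ovary were resolved into whole reads per library (tolerance 1e-07), which succeeded for all 3183 VG and 2898 ovary values and gave size factors of 0.525, 0.450 and 0.287 for VG libraries and 2.58, 2.47 and 2.30 for ovary libraries, not tied to replicate numbers. Intervals of low genes are exact Poisson intervals at 95%, for counting error only.

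Members and gene lists were chosen by words in the annotation, with earlier results of these data known. All members could be named, and of each list the genes with the highest and lowest fold change. Levels per length were planned and are not given, since the deposited table holds no gene lengths. Alternatives covered the fold limit, the minimum, a pseudocount of 1 or 10, the scaling and the choice of members. The steps were tested on simulated data. Software versions were scipy 1.17.1, pandas 2.3.3, numpy 2.4.6, Python 3.11.15 and, for plots, matplotlib 3.10.9.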

Additional observations from a re-analysis of the deposited data

How the results depend on the processing

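No replicate spread was available for the abundant genes, so these alternatives say how the values move and not whether they are significant. No paired analysis was possible because the table holds means over the libraries of a tissue and no values per library for most genes. Of 97 values under alternatives, 57 stayed close to the value reported and 40 moved. A median counted as moved past 0.1 on the log2 scale and a count past 1.5 times.

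The count of proteasome genes past the limit was 1 higher and 7 lower in the VG. At a limit of 1.5-fold it was 3 higher and 14 lower, and at 4-fold 0 higher and 3 lower. The 3 at 4-fold were the genes that passed the minimum only through the ovary. Shares of all genes at these limits were not computed, so these counts cannot be set against them. Without a minimum, 2 were higher, since the regulatory subunit 2 gene Nasvi2EG001976 was then counted on 1 read. When each tissue had to reach a mean of 10, 4 were lower, against 33.0% of the 8532 such genes in the table. The median log2 fold change of all proteasome genes was then -0.26, against -0.27 over the 8532 genes, and that of the regulatory subunits was -0.51. With subunits of the core and the regulatory particle only, 3 were lower and the median was -0.25.

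Scaling to equal totals gave 0 higher and 38 lower, with medians of -2.78 over all proteasome genes, -2.41 over core and -2.99 over regulatory subunits. Without the venom protein encoding genes in the totals the counts were 0 higher and 31 lower, and the medians -1.69, -1.32 and -1.90 in the same order. Centring on the median gene gave 3 higher and 4 lower, with medians of -0.14, 0.23 and -0.35. The share of all genes past 2-fold after centring was not computed. The difference between the core and regulatory medians was 0.43 with the ATPases counted as regulatory, an alternative chosen after the data were seen. The log2 fold change of Nasvi2EG002766 ran between -3.10 and -2.46 when each library was left out in turn, except that without the VG library that holds both of its VG reads there was no value.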

Other observations

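Each of the multi-subunit complexes described above except the CCT chaperonin and the proteasome core had a conserved subunit listed at 0 in both tissues. These were DSS1 (Nasvi2EG027926b) and ATPase subunit 6B (Nasvi2EG012436) in the regulatory particle, subunit 2 (Nasvi2EG007878) in the COP9 signalosome and subunit L (Nasvi2EG018301) in eIF3. An exact 0 for genes of this kind was not taken as absence of expression, and 45.3% of all 36329 genes were listed at 0 in both tissues. The signalosome subunit 7 gene Nasvi2EG010742 was also listed at 0, but another gene with the same annotation, Nasvi2EG018248, had means of 475 in the VG and 1075 in the ovary. A gene annotated as ubiquitin-activating enzyme E1, which starts every ubiquitin transfer, was nearly without reads, with means of 0.740 in the VG and 0.145 in the ovary (Nasvi2EG017325). Whether a gene under another annotation encodes this enzyme was not examined, so these means are not taken as the level of the enzyme.

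Genes annotated as cap'n'collar, a transcription factor that activates proteasome genes in *Drosophila* under stress, were looked up after the other values were seen. Nasvi2EG015484 had means of 2782 in the VG and 1912 in the ovary. Nasvi2EG015480 had 414 in the VG and 382 in the ovary, and Nasvi2EG015482 had 218 in the VG and 259 in the ovary. All of them lay within 2-fold under the authors' size factors.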
